A study of Arabidopsis thaliana with 15 samples.

Results

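The genes described here are 85 genes of Arabidopsis thaliana roots whose counts were higher after 2 h and 3 h of Rose Bengal (RB) than in water, while their counts after a combined treatment with hydrogen peroxide (H2O2) were at most 25% above those in water. They were chosen from 14391 genes by their measured counts. Levels are counts per 1000000 (CPM), the count of a gene as a share of the summed counts of its library, scaled to a common total. A gene was taken when its mean CPM at RB 2 h was at least 10, when its ratio to water was at least 2 at both RB 2 h and RB 3 h, and when its ratio to water in the combined treatment was at most 25% above 1, with 1 added to each mean CPM. Both dye thresholds and the CPM minimum were met by 843 genes, of which 758 were more than 25% above water in the combined treatment. A further 1 gene was left out by name.

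The samples were roots of 7-day-old Columbia-0 wild-type seedlings kept at 21 °C with 16 h of light a day and 8 h of darkness, with 30 to 50 seedlings pooled in each biological replicate and 3 replicates in each of 5 groups. The combined group (RBH) received 5 mM H2O2 and 10 µM of a compound that its label writes MRB, for 2 h, an abbreviation that the labels do not spell out. The dye groups received 10 µM RB for 1 h, 2 h or 3 h, and the controls received water. The water samples are labelled 1 h, so the RB 2 h, RB 3 h and RBH groups differ from water in time as well as treatment, while RBH and RB 2 h are matched in time. H2O2 without the dye was not analysed here, and the sources used here do not state the light during treatment.

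RB is a dye that, when it absorbs light, passes the energy to oxygen and forms singlet oxygen. Singlet oxygen and H2O2 are both reactive oxygen species, but they differ in reactivity and lifetime and are known to evoke overlapping and separate sets of plant transcripts. Calcium sensors, receptor kinases, protein phosphatases, transcription factors and protein quality control are among the systems through which plant cells are known to respond to both. The chosen genes include members of each of these systems, by roles assigned after the members were seen. How common such genes are among all genes was not counted, so nothing is read from their presence.

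The members were matched to the TAIR10.1 annotation of RefSeq by locus identifier; all 85 were found and were protein coding, and 46 had a symbol other than the locus. They lay on chromosomes 1 to 5 in numbers of 22, 8, 16, 12 and 27. The median annotated gene length was 2349 bases for the members and 2393 bases for the protein-coding genes tested. LECRKA4.1 and LECRKA4.2 were neighbours on the same strand of chromosome 5, and AT5G02480 and Hsp70-2 were neighbours on opposite strands of that chromosome. Another annotated gene was overlapped by 23 members, 21 of which overlapped a gene on the opposite strand, among them MYC2, MMP, LNG2, LECRKA4.1 and AT5G59450. The sources used here do not state whether the counting used strand, so reads of such pairs may not be separable. LSD1 and AT1G52200 overlapped a gene on the same strand, where strand could not separate the reads. Counts of Hsp70-2, UBQ3, LECRKA4.1, LECRKA4.2, SBP2 and ACLB-2 are uncertain for another reason, since each has close relatives in the genome with which reads can be shared.

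The promoter sequences shown are those of 5 of the 6 members that passed the test at RB 1 h under every alternative tried, a choice made after their values were seen. Each is the 250 bases before the annotated start of the gene, read 5′ to 3′ on the gene's strand from RefSeq TAIR10.1. Capitals mark letters of a searched motif on either strand: TTGACC or TTGACT, bound by WRKY factors, or GAANNTTC, the core of sites bound by heat shock factors.
NAC041, chr2:14180728-14180977, plus strand: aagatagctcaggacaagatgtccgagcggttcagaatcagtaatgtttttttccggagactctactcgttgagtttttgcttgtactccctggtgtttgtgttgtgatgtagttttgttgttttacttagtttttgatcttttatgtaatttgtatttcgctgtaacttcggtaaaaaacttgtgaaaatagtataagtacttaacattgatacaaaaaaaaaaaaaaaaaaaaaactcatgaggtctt
LECRKA4.1, chr5:213473-213722, minus strand: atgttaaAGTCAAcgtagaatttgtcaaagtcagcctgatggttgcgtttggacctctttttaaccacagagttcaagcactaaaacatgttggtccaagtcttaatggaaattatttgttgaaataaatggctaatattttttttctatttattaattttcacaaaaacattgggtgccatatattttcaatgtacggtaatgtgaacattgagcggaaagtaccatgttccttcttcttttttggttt
LECRKA4.2, chr5:216774-217023, minus strand: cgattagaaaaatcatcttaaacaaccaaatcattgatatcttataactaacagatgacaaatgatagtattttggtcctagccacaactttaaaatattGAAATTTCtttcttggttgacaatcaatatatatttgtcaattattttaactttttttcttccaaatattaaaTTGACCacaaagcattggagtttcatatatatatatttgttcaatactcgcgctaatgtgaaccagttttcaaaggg
PRA1.B5, chr5:242323-242572, minus strand: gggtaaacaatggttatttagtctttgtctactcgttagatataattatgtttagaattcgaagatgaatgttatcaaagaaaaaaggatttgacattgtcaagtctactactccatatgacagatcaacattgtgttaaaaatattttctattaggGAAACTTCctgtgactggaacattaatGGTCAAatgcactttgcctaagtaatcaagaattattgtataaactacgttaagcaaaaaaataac
AT5G59450, chr5:23974208-23974457, plus strand: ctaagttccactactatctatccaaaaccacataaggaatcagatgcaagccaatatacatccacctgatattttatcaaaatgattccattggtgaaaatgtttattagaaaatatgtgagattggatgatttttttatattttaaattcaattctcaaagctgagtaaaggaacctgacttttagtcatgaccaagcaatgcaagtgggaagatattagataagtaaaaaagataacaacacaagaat

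The promoters of NAC041 and AT5G59450 held none of the searched motifs. Among the 85 member promoters, TTGACC was found in 9 (10.6%), against 12.4% of the 9747 promoters of tested protein-coding genes read in the same way. TTGACT was found in 14 members (16.5%), against 18.9% of those promoters, and GAANNTTC in 8 members (9.41%), against 9.16%. The G-box CACGTG, bound by MYC2 and other basic helix-loop-helix or bZIP factors, was found in 8 members (9.41%), against 7.82%. The TGACG core of TGA factor sites was found in 7 members (8.24%), against 19.1%. GCCGCC, bound by ethylene response factors, was found in 1 member (1.18%), against 2.01%, and the DRE core CCGAC in 9 members (10.6%), against 13.3%. The evening element AAAATATCT was found in 4 members (4.71%), against 2.5%, and CGCGTT, a letter run bound by calmodulin-binding transcription activators that was added to the search after the members were seen, in 2 members (2.35%), against 2.72%. These shares describe letters in a fixed window, and no test was made of them.

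Library totals lay between 897728 and 6230975 counts, so 1 count was worth 0.160 to 1.11 CPM, and 36 of the 85 members had at most 25 CPM at RB 2 h. On component 3 of the log2 CPM, which held 7.40% of the variance, RB 1 h replicate b and RB 2 h replicate a stood apart from their groups. They held 1061356 and 1032423 counts, each the lowest total of its group. Water replicate a, with 897728 counts the lowest of all, stood with its group. Why the 2 libraries stood apart was not tested. Root hair markers summed to 1.93 to 16.4 CPM in RBH roots, against 92.5 to 130 CPM in water, 69.7 to 106 CPM at RB 1 h, 22.3 to 34.2 CPM at RB 2 h and 6.15 to 19.8 CPM at RB 3 h, over 4 markers all present in the table. Summed markers of green shoot tissue, 10 genes all present in the table, were at 265 to 697 CPM in RBH roots, against 316 to 481 CPM in water, 262 to 296 CPM at RB 1 h, 259 to 442 CPM at RB 2 h and 175 to 202 CPM at RB 3 h. The 3 phloem markers summed to 123 to 174 CPM in RBH roots, against 181 to 227 CPM in water, 193 to 271 CPM at RB 1 h, 236 to 260.4 CPM at RB 2 h and 204 to 243 CPM at RB 3 h. The 1 pericycle marker was at 10.3 to 17.0 CPM in RBH roots, against 30.0 to 45.7 CPM in water, 30.2 to 66.2 CPM at RB 1 h, 20.3 to 74.7 CPM at RB 2 h and 28.8 to 32.2 CPM at RB 3 h. Phloem and pericycle markers were thus lower in every RBH library than in every other library, water included. Against the dye the members also differed in this direction, while against water their median RBH ratio was 1.01. Endodermis markers were higher in every RBH library than in every RB 3 h library. Of 3 root cap markers 2 were in the table, at 6.0 to 7.62 CPM in RBH roots and 4.46 to 15.5 CPM in water. At RB 1 h, 2 h and 3 h they were at 9.42 to 17.5, 9.86 to 12.6 and 9.57 to 10.3 CPM. The 4 endodermis markers summed to 475 to 671 CPM in RBH roots, against 559 to 615 CPM in water. Their dye groups, in the same order, were at 589 to 696, 384 to 478 and 338 to 378 CPM. The 4 xylem markers summed to 263 to 402 CPM in RBH roots, against 205 to 244 CPM in water. Their dye groups were at 214 to 273, 251 to 328 and 326 to 385 CPM. The markers' part in the results was not tested, and in bulk roots fewer cells of a type and less RNA per cell cannot be told apart. The members' levels use plain library totals, under which the median ratio to water of the 9891 genes tested was 0.993 for RBH, 1.14 at RB 1 h, 1.14 at RB 2 h and 1.12 at RB 3 h. With totals scaled by TMM, the trimmed mean of M values, 43 genes met the rule, all of them among the 85.

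The 85 members together held 0.290 ± 0.00663% of all counts in RBH roots, against 0.314 ± 0.0202% in water, 0.493 ± 0.0473% at RB 1 h, 0.736 ± 0.0918% at RB 2 h and 0.842 ± 0.0223% at RB 3 h (SD, n = 3 each). The rule chose the members on all of these groups except RB 1 h, so the values of the others are a description. Their median ratio to water was 1.01 in RBH roots, 1.65 at RB 1 h, 2.35 at RB 2 h and 2.52 at RB 3 h. In the 758 other genes higher after the dye, the median ratio was 2.92 in RBH roots, 2.00 at RB 1 h, 3.23 at RB 2 h and 3.84 at RB 3 h. Most members lay close to the 2-fold threshold, with 54 at a ratio under 2.5 and 16 at a ratio of at least 3 at RB 2 h.

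Every RB 2 h library was above every RBH library for 67 of the 85 members, and this held for 19.3% of all genes tested. The same held at RB 3 h for 84 members, where the share of all genes was 28.9%. Against water, every RB 2 h library was higher for 68 members (22.9% of all genes) and every RB 3 h library for 83 members (32% of all genes). The rule used these contrasts, so nothing is read from the counts. In the fit across all genes, the members' log2 fold change of RBH over RB 2 h had a median of -1.16 and lay between -5.10 and -0.50, while the median over all genes was -0.02.

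**Figure D1:**
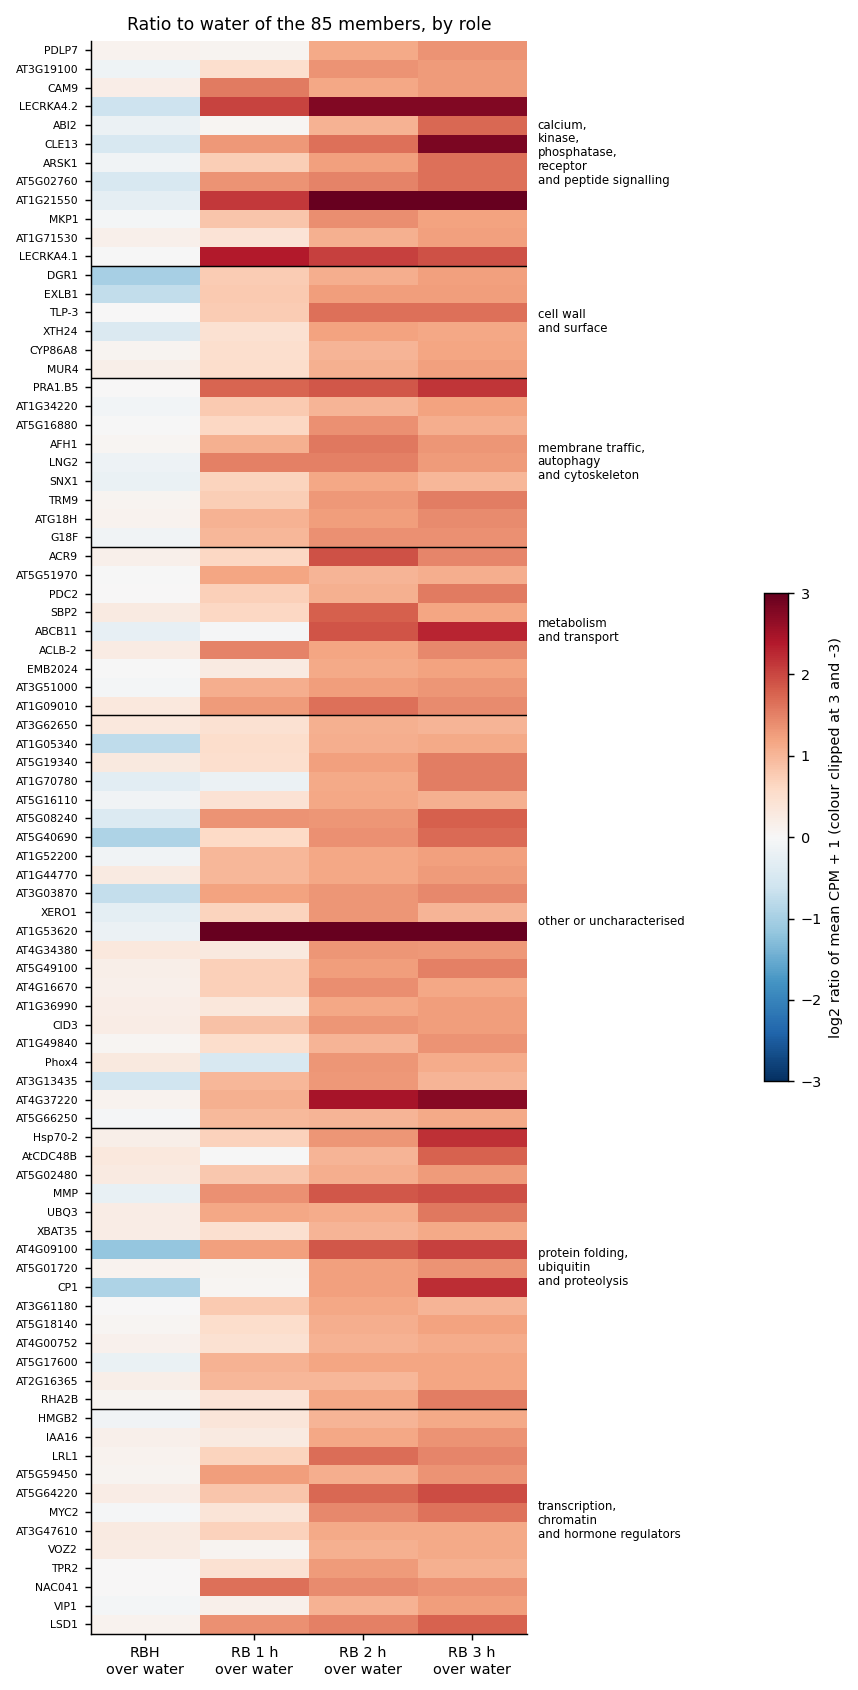
Log2 ratio of mean CPM plus 1 to water for the 85 members (rows, grouped by role) in RBH, RB 1 h, RB 2 h and RB 3 h roots (columns), each from 3 libraries; colour is clipped at 3 and -3. The RBH column is pale or blue throughout, as the rule requires, while the RB 1 h column runs from 4 members below water to 26 members at a ratio of at least 2.

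Members just inside the thresholds differed little from genes just outside. AtCDC48B, AT4G34380 and AT3G62650 had RBH ratios of 1.2497, 1.244 and 1.239, and PDE320, AT2G43320 and ADF9, which met every other threshold, had 1.252, 1.265 and 1.271. The smaller of both dye ratios was 2.007 for SNX1, 2.008 for AT2G16365 and 2.012 for HMGB2, and 1.994 for AT1G04780, 1.980 for AT4G16000 and 1.966 for AT5G01390, which were left out. LECRKA4.1, AT5G66250 and AT4G37220 lay just above the CPM minimum, at RB 2 h means of 10.2, 11.5 and 11.5 CPM, and AT3G09280, FAF3 and AT1G06135 just below it, at 9.94, 9.62 and 9.43 CPM.

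The RB 1 h libraries took no part in the choice of members, although the water libraries they are set against did, and a low water mean favours a gene's choice. At RB 1 h, 11 of the 85 members passed the test as higher than water, and 0 passed as lower (edgeR quasi-likelihood test across 9891 genes, Benjamini-Hochberg adjusted p under 0.05). Of all genes tested, 3.07% were called higher and 2.32% lower. At an unadjusted p under 0.05, edgeR gave 33 members higher and 0 lower, against 10.5% and 9.51% of all genes. DESeq2 called 11 members higher and 0 lower, against 3.72% and 3.12% of the genes to which it gave an adjusted p. The log2 fold change of RB 1 h over water had a median of 0.59 over the members, between -0.82 and 3.77, with 76 of 85 above 0. Over all genes the median was 0.02, and 51.6% were above 0. Without RB 1 h replicate b and RB 2 h replicate a, 16 members passed, and without water replicate c 7 passed. The calls over all genes in both directions moved with them, at 533 in the fit of all libraries, 1104 without the 2 libraries and 296 without water replicate c. The authors' deposited table gives an adjusted p under 0.05 in this comparison for 9 members, all of them among the 11.

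Before any test, every RB 1 h library was above every water library for 38 members, against 17.6% of all genes. A ratio of at least 2 at RB 1 h was reached by 26 members, against 8.92% of all genes, and 4 members were below water, against 33.2% of all genes. The members were chosen as higher than these water libraries at RB 2 h and RB 3 h. All genes are therefore an uneven comparison, here and for the calls at RB 1 h, and nothing particular to the members is read. At RB 1 h the median ratio to water was 1.65 for the members and 2.00 for the 758 other genes higher after the dye. Every RB 1 h library was above every RBH library for 40 members, against 26.1% of all genes, but the rule capped RBH, so nothing is read from that count.

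**Figure D2:**
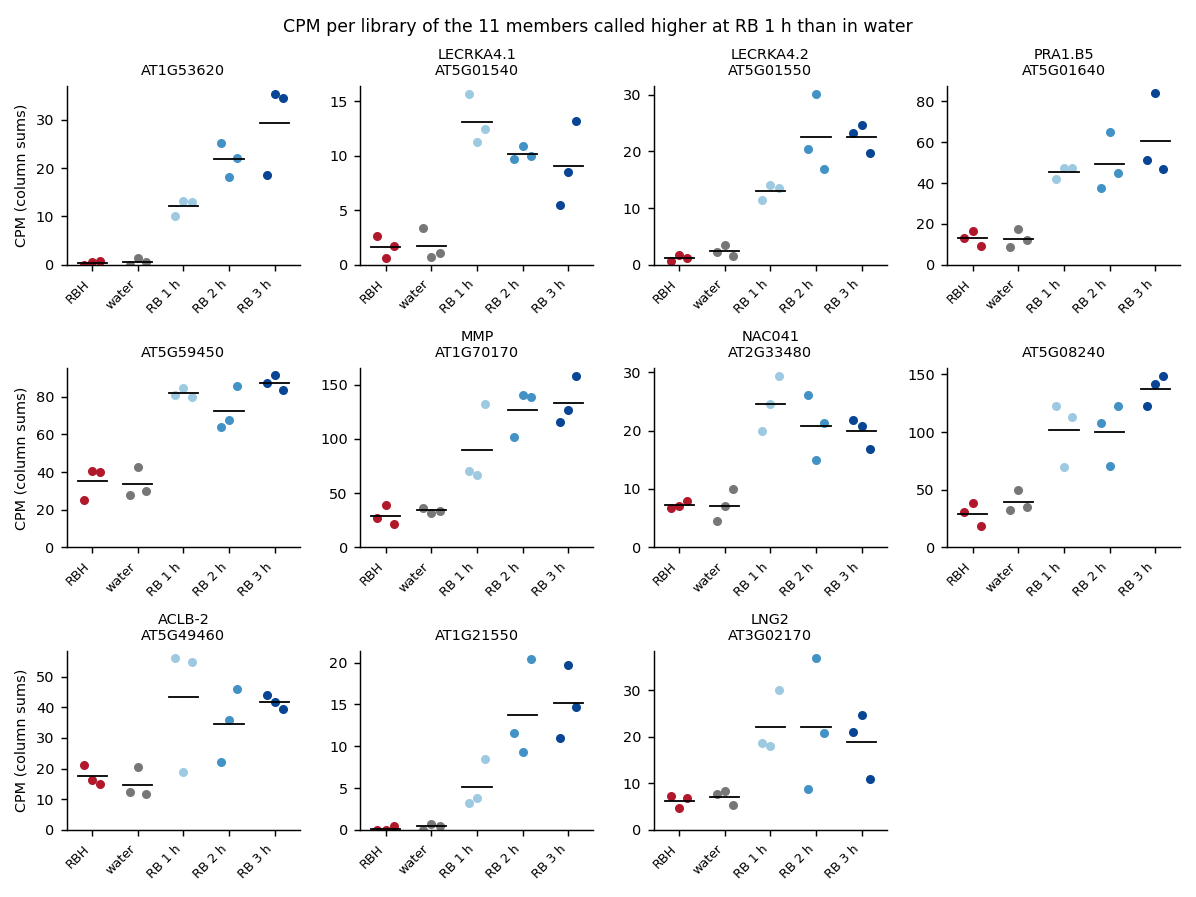
CPM in each library (points) and group mean (lines) of the 11 members called higher at RB 1 h than in water, for RBH, water, RB 1 h, RB 2 h and RB 3 h roots, with 3 libraries a group and a separate vertical scale for each gene. AT1G53620 is at 0 to 0.802 CPM in RBH roots and at most 13.2 CPM at RB 1 h, and the ACLB-2 panel shows 1 low RB 1 h library at 18.8 CPM.

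Among the 12 genes of calcium, kinase, phosphatase, receptor and peptide signalling, 3 passed the test at RB 1 h. LECRKA4.1 and LECRKA4.2 encode lectin-domain receptor kinases of the plasma membrane. LECRKA4.1 (AT5G01540) stood at 15.7, 11.3 and 12.4 CPM at RB 1 h, against 3.34, 0.703 and 1.05 CPM in water. It was at 2.67, 0.586 and 1.77 CPM in RBH roots, against 9.69, 10.9 and 9.98 CPM at RB 2 h and 5.47, 8.54 and 13.2 CPM at RB 3 h. The RB 1 h libraries were clear of the water libraries, and the RBH libraries overlapped those of water. Its log2 fold change of RB 1 h over water was 2.96 (SE 0.56, edgeR adjusted p 0.00135). LECRKA4.2 (AT5G01550) had 11.4, 14.1 and 13.6 CPM at RB 1 h, against 2.23, 3.51 and 1.58 CPM in water. In RBH roots it had 0.666, 1.76 and 1.28 CPM, against 20.3, 30.1 and 16.9 CPM at RB 2 h and 23.2, 24.6 and 19.8 CPM at RB 3 h. All 9 dye libraries of LECRKA4.2 thus lay above all 6 RBH and water libraries. Its RB 1 h fold change over water was 2.21 on the log2 scale (SE 0.43, edgeR adjusted p 0.00188).

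AT1G21550 encodes an EF-hand protein, a class that binds calcium. Its levels were 3.27, 3.77 and 8.49 CPM at RB 1 h, against 0, 0.703 and 0.527 CPM in water, where the 3 libraries held 2 counts in all. RBH roots held 3 counts, in 1 of 3 libraries, while RB 2 h roots had 11.6, 9.34 and 20.4 CPM and RB 3 h roots 10.9, 19.8 and 14.7 CPM. The pooled ratio of RB 1 h to water was 10.4, with an exact 95% counting interval of 2.63 to 89.8, and its adjusted p was 0.0273 (edgeR). This call was lost in 5 of 11 alternatives, with adjusted p between 0.0183 and 0.144 (edgeR or DESeq2).

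Other signalling members did not pass at RB 1 h, and those named in this paragraph apart from CAM9 were chosen after their values were seen. CAM9, a calmodulin, had 41.5, 39.6 and 28.3 CPM at RB 1 h, against 5.57, 21.8 and 7.91 CPM in water, a log2 fold change of 1.41 (SE 0.63, edgeR adjusted p 0.227). In RBH roots CAM9 had 10.7, 14.1 and 15.9 CPM, against 48.4, 6.74 and 27.8 CPM at RB 2 h, so its RB 2 h libraries spanned the RBH libraries. The protein phosphatase ABI2, which restrains abscisic acid signalling, stood at 6.0, 5.86 and 7.7 CPM in RBH roots, against 20.3, 14.5 and 15.2 CPM at RB 2 h and 27.6, 21.9 and 32.2 CPM at RB 3 h. At RB 1 h ABI2 had 4.9, 11.3 and 7.35 CPM, against 7.8, 8.43 and 6.32 CPM in water, with overlapping libraries. MKP1, a phosphatase that inactivates MAP kinases, had a mean of 4.21 ± 1.36 CPM in RBH roots, against 13.2 ± 8.21 CPM at RB 2 h (SD, n = 3 each), and 1 of its RB 2 h libraries, at 4.84 CPM, lay within the RBH range. CLE13, of a family of secreted signalling peptides, averaged 2.86 ± 0.581 CPM in RBH roots, against 15.9 ± 7.36 CPM at RB 2 h and 37.1 ± 3.84 CPM at RB 3 h (SD, n = 3 each). ARSK1, a kinase named for its root-specific expression, had 4.0, 8.21 and 4.49 CPM in RBH roots, against 12.6, 18.2 and 15.6 CPM at RB 2 h, with no overlap. PDLP7, a receptor-like protein of plasmodesmata, had 43.3, 58.6 and 51.7 CPM in RBH roots, against 87.2, 104 and 124 CPM at RB 2 h, also with no overlap. AT5G02760, a protein phosphatase of the 2C family, had 2.0, 3.52 and 3.05 CPM in RBH roots, against 2.91, 19.2 and 20 CPM at RB 2 h, where replicate a was within the RBH range. Over the 12 signalling members, the median ratio to water was 0.926 in RBH roots, 2.13 at RB 1 h, 2.59 at RB 2 h and 3.13 at RB 3 h.

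Of the 12 regulators of transcription, chromatin and hormone response, 2 passed at RB 1 h. NAC041, a NAC-domain transcription factor, had 19.9, 24.5 and 29.4 CPM at RB 1 h, against 4.46, 7.03 and 10 CPM in water. It had 6.66, 7.03 and 7.86 CPM in RBH roots, against 26.2, 15 and 21.3 CPM at RB 2 h and 21.9, 20.8 and 16.9 CPM at RB 3 h. The RBH libraries of NAC041 lay within the range of the water libraries, and every dye library lay above both. Its log2 fold change of RB 1 h over water was 1.48 (SE 0.33, edgeR adjusted p 0.00655). AT5G59450, annotated as a transcription factor of the GRAS family, had 80.7, 84.8 and 79.8 CPM at RB 1 h, against 27.8, 42.9 and 30 CPM in water. In RBH roots AT5G59450 had 25.3, 40.4 and 40.3 CPM, against 63.9, 67.4 and 85.9 CPM at RB 2 h and 87.3, 91.8 and 83.5 CPM at RB 3 h. The 9 dye libraries were again clear of the 6 others, and the log2 fold change of RB 1 h over water was 1.09 (SE 0.22, edgeR adjusted p 0.0025).

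The regulators with the highest levels did not pass at RB 1 h. HMGB2, a high mobility group protein of chromatin, had 398, 453 and 412 CPM in RBH roots, against 675, 1023 and 1048 CPM at RB 2 h. Its water libraries stood at 394, 481 and 488 CPM, so those of RBH roots overlapped them. IAA16, a repressor of auxin-responsive transcription, had 195, 193 and 189 CPM in RBH roots, against 317, 422 and 419.9 CPM at RB 2 h. At RB 1 h IAA16 had 210.5, 182 and 233 CPM, against 188, 158 and 172 CPM in water, and had reached 16.8% of its difference between RB 2 h and water. LRL1, a basic helix-loop-helix factor of root hair growth, had 121, 104 and 132 CPM in RBH roots, against 327, 397 and 329 CPM at RB 2 h and 302, 315 and 299.7 CPM at RB 3 h. LRL1 was thus high at RB 2 h and RB 3 h while the summed root hair markers, which do not include it, were lower than in water.

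MYC2, the basic helix-loop-helix factor that activates jasmonate-responsive genes, had 12, 24 and 19.6 CPM in RBH roots, against 22.3, 70 and 68.5 CPM at RB 2 h and 64.7, 56.1 and 60.8 CPM at RB 3 h. At RB 1 h it had 34.6, 9.42 and 31.7 CPM, against 22.3, 24.6 and 10 CPM in water, and the low values at RB 1 h and RB 2 h came from the 2 libraries that stood apart. Its log2 fold change of RB 1 h over water was 0.34 (SE 0.42, edgeR adjusted p 0.701). MYC2 belongs to a list of genes of jasmonate synthesis, repression and breakdown, of which 15 of 23 could be tested. None of the 15 was called at RB 1 h against water by edgeR, where 0 were higher and 2 lower at an unadjusted p under 0.05, and DESeq2 called 1 lower, AT3G48520, a cytochrome P450 of jasmonate breakdown. None was called at RB 3 h against RB 2 h by either tool, with 2 higher and 1 lower at an unadjusted p under 0.05 (edgeR). The list's median log2 fold change at RB 1 h was -0.01, against 0.02 over all genes. CAM9 belongs to a list of calmodulin-like calcium sensors, of which 5 of 8 could be tested, and 2 of the 5, AT2G41100 and AT5G42380, were called higher at RB 1 h, with log2 fold changes of 3.20 (SE 0.20) and 3.53 (SE 0.33) and edgeR adjusted p of 3.2e-10 and 2.1e-07. None of the other 4 lists held a member. Called higher at RB 1 h, against 3.07% of all genes, were 4 of 13 WRKY factors, 6 of 12 genes of pattern-triggered immunity and camalexin, and 4 of 12 of ethylene synthesis and response (edgeR). Of 8 phenylpropanoid and suberin genes edgeR called 0, with 2 higher at an unadjusted p under 0.05, and DESeq2 called 1 higher. All of these lists were chosen with earlier results of these data known, so nothing is read from their shares.

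AT5G64220, VIP1, TPR2, VOZ2 and LSD1 were looked at after their values were seen. AT5G64220, a calmodulin-binding transcription activator, had 9.33, 20.5 and 27.9 CPM in RBH roots, against 29.1, 70.5 and 69 CPM at RB 2 h and 86.8, 57.1 and 57.2 CPM at RB 3 h. LSD1, a zinc finger protein that restrains the spread of cell death driven by reactive oxygen, had 2.67, 2.93 and 5.62 CPM in RBH roots, against 18.4, 7.78 and 8.68 CPM at RB 2 h and 12.1, 19.2 and 11 CPM at RB 3 h. The LSD1 values at RB 1 h were 16.3, 0.942 and 14.1 CPM, against 1.11, 4.92 and 4.22 CPM in water, so 1 RB 1 h library was below every water library. VIP1, a bZIP factor, VOZ2, a zinc finger factor, and TPR2, a corepressor related to TOPLESS, had RB 2 h ratios to water of 2.05, 2.1 and 2.44, and RBH ratios of 0.965, 1.19 and 1.01. Over the 12 regulators the median ratio to water was 1.06 in RBH roots, 1.49 at RB 1 h, 2.34 at RB 2 h and 2.54 at RB 3 h.

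Of the 15 members in protein folding, ubiquitin and proteolysis, 1 passed at RB 1 h. MMP, a matrix metalloproteinase, had 70.3, 66.9 and 132 CPM at RB 1 h, against 36.8, 31.6 and 33.7 CPM in water. In RBH roots it had 27.3, 39.3 and 21.2 CPM, against 102, 140.0 and 139 CPM at RB 2 h and 115, 127 and 158 CPM at RB 3 h. The dye libraries did not overlap with the others. The log2 fold change of RB 1 h over water was 1.21 (SE 0.26, edgeR adjusted p 0.00448), and the call was lost in 1 of 12 alternatives.

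The chaperone Hsp70-2 and the ATPase AtCDC48B were at higher levels at RB 3 h than at RB 2 h. AtCDC48B is of a family that extracts ubiquitylated proteins from complexes and membranes. The rule used both groups, so this difference is a description, and neither gene passed the edgeR test. Hsp70-2 had 609, 664 and 599 CPM at RB 3 h, against 391, 279 and 364 CPM at RB 2 h. It had 196, 233 and 232 CPM at RB 1 h, against 162, 122 and 126 CPM in water, and 131, 145 and 186 CPM in RBH roots, so the RB 3 h libraries were above all 12 others. AtCDC48B had 637, 471 and 393 CPM at RB 3 h, against 318, 239 and 328 CPM at RB 2 h. Its RB 1 h libraries, at 118, 187 and 129 CPM, overlapped those of water, at 120.3, 152 and 162 CPM, and RBH roots had 153, 182 and 209 CPM. AT5G02480, a small heat shock protein-like chaperone next to Hsp70-2 in the genome, had 44.7, 72.7 and 109 CPM in RBH roots, against 152, 96 and 151 CPM at RB 2 h, with the highest RBH library above the lowest RB 2 h library.

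AT4G09100, a RING finger protein of the kind that acts in ubiquitin transfer, had the lowest RBH ratio to water of all 85 members, 0.449. It had 7.33, 2.93 and 2.41 CPM in RBH roots, against 7.8, 16.2 and 7.91 CPM in water and 37.8, 36.3 and 49.5 CPM at RB 2 h, and all 3 groups were separate. CP1, a cysteine proteinase, had 8.66, 4.69 and 8.35 CPM in RBH roots, against 16.7, 13.3 and 14.2 CPM in water, a ratio of 0.522, and 24.2, 37.3 and 46 CPM at RB 2 h. CP1 reached 66.3, 62.5 and 86.5 CPM at RB 3 h. UBQ3, which encodes polyubiquitin, had 86.6, 66.8 and 19.3 CPM in RBH roots, against 102, 103 and 118 CPM at RB 2 h, and was named after its values were seen. Its RBH libraries, which spread widely, all lay below the RB 2 h libraries. Further members of this group, also named after their values were seen, were the ubiquitin ligases XBAT35 and RHA2B. XBAT35 had 43.3, 48.1 and 53.8 CPM in RBH roots, against 47.5, 111 and 93.3 CPM at RB 2 h, where the lowest RB 2 h library lay within the RBH range. RHA2B, known in Arabidopsis to promote abscisic acid responses, had 10, 4.1 and 2.25 CPM in RBH roots, against 16.5, 8.82 and 12.6 CPM at RB 2 h, again with overlap. Over the 15 members of this group the median ratio to water was 1.08 in RBH roots, 1.61 at RB 1 h, 2.23 at RB 2 h and 2.56 at RB 3 h.

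Among the 6 members of cell wall and surface, 0 passed at RB 1 h by edgeR or by DESeq2, and 2 had an unadjusted p under 0.05 (edgeR). DGR1, a wall-associated protein with a DUF642 domain, was the most abundant member and had 265, 233 and 228 CPM in RBH roots, against 487, 566 and 396 CPM in water and 1044, 933 and 1118 CPM at RB 2 h. The 3 groups did not overlap, RBH being lowest, and the RBH ratio to water was 0.502. At RB 1 h DGR1 had 722, 979 and 744 CPM, all above water, with a log2 fold change of 0.59 (SE 0.20, edgeR adjusted p 0.0842). EXLB1, an expansin-like wall protein, had 54.7, 51.6 and 51.7 CPM in RBH roots, against 91.3, 89.9 and 83.3 CPM in water and 155, 243 and 233 CPM at RB 2 h, again with separate groups. The other 4 wall and surface members, TLP-3, XTH24, CYP86A8 and MUR4, had RB 2 h ratios to water of 3.14, 2.32, 2.02 and 2.09, and RBH ratios of 1.02, 0.738, 1.05 and 1.12.

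Of the 9 members in membrane traffic, autophagy and cytoskeleton, 2 passed at RB 1 h. PRA1.B5, of a family of membrane proteins that bind prenylated Rab GTPases, had 41.8, 47.1 and 47.5 CPM at RB 1 h, against 8.91, 17.6 and 12.1 CPM in water. RBH roots had 13.3, 16.4 and 8.99 CPM, against 37.8, 64.8 and 45.1 CPM at RB 2 h and 51, 83.8 and 46.9 CPM at RB 3 h. The dye libraries were all above the others, and the log2 fold change of RB 1 h over water was 1.59 (SE 0.31, edgeR adjusted p 0.00209). LNG2, a protein that promotes elongation of leaf cells, had 18.6, 17.9 and 30 CPM at RB 1 h, against 7.8, 8.43 and 5.27 CPM in water. Its RBH libraries, at 7.33, 4.69 and 6.9 CPM, lay below those of RB 2 h, at 8.72, 36.8 and 20.8 CPM, by a small margin in 1 library. The log2 fold change of RB 1 h over water was 1.46 (SE 0.42, edgeR adjusted p 0.0423), and the call was lost in 5 of 12 alternatives. ATG18H and G18F, of the family of lipid-binding autophagy proteins, and SNX1, a sorting nexin of endosomes, had RB 2 h ratios to water of 2.4, 2.57 and 2.24, and RBH ratios of 1.08, 0.928 and 0.873. AFH1, a formin that nucleates actin filaments, had 8.0, 7.03 and 10.4 CPM in RBH roots, against 9.69, 42.5 and 26 CPM at RB 2 h, and its lowest RB 2 h library lay within the RBH range. AFH1, SNX1, ATG18H and G18F were named after their values were seen.

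Of the 9 members in metabolism and transport, 1 passed at RB 1 h. ACLB-2, a subunit of the ATP citrate lyase that makes cytosolic acetyl-CoA, had 56.2, 18.8 and 54.9 CPM at RB 1 h, against 12.3, 20.4 and 11.6 CPM in water. The low RB 1 h value was that of replicate b and fell within the water range. RBH roots had 21.3, 16.4 and 15.1 CPM, against 22.3, 35.8 and 46 CPM at RB 2 h and 44, 41.6 and 39.6 CPM at RB 3 h. The log2 fold change of RB 1 h over water was 1.39 (SE 0.32, edgeR adjusted p 0.00963), and the call was lost in 3 of 12 alternatives. ABCB11, a transporter of the ATP-binding cassette family, had 9.33, 9.97 and 17.2 CPM in RBH roots, against 59.1, 59.7 and 52.1 CPM at RB 2 h and 77, 87 and 60.8 CPM at RB 3 h. Its RB 1 h libraries, at 12.4, 15.1 and 15.3 CPM, overlapped those of water, at 13.4, 16.2 and 14.2 CPM. PDC2, a pyruvate decarboxylase of fermentation, had 20, 40.4 and 29.7 CPM in RBH roots, against 32.9, 83 and 75 CPM at RB 2 h, with overlap. SBP2, a selenium-binding protein, had 17.3, 19.3 and 25.8 CPM in RBH roots, against 31, 96 and 58.6 CPM at RB 2 h and 50.3, 36.8 and 33 CPM at RB 3 h. ACR9, a protein with ACT domains, which bind amino acids, had 28.7, 19.3 and 14.3 CPM in RBH roots, against 36.8, 113 and 69 CPM at RB 2 h and 65.4, 44.8 and 48.4 CPM at RB 3 h. SBP2 and ACR9 had a lower mean at RB 3 h than at RB 2 h and, like PDC2 and ABCB11, were named after their values were seen.

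The remaining 22 members were grouped as other or uncharacterised, and 2 of them passed at RB 1 h. AT1G53620, annotated as an uncharacterized protein, showed the highest ratio to water at RB 1 h, at RB 2 h and at RB 3 h among the 85. It had 10.1, 13.2 and 13 CPM at RB 1 h, against 0, 1.41 and 0.527 CPM in water, where the 3 libraries held 3 counts in all. RBH roots had 0, 0.586 and 0.802 CPM, 6 counts in all, against 25.2, 18.2 and 22.1 CPM at RB 2 h and 18.5, 35.2 and 34.4 CPM at RB 3 h. Every dye library was far above every RBH and water library. The pooled ratio of RB 1 h to water was 16.2, with an exact 95% counting interval of 5.33 to 80.7, and the adjusted p was 0.000352 (edgeR). AT5G08240, also uncharacterized, had 123, 69.7 and 113 CPM at RB 1 h, against 32.3, 49.9 and 35.3 CPM in water. RBH roots had 30.7, 38.1 and 18.9 CPM, against 108, 70.5 and 122 CPM at RB 2 h and 122, 141 and 149 CPM at RB 3 h, so the RBH libraries were all below those of the dye. Its log2 fold change of RB 1 h over water was 1.19 (SE 0.27, edgeR adjusted p 0.00707), and the call was lost in 2 of 12 alternatives.

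Also grouped as other or uncharacterised was AT1G05340, annotated as a cysteine-rich transmembrane stress tolerance protein. It had 72.6, 88.5 and 85.7 CPM in RBH roots, against 118, 158 and 143 CPM in water and 317, 266 and 318 CPM at RB 2 h. The 3 groups were separate, and the RBH ratio to water was 0.591. AT5G40690 likewise had 20, 14.1 and 16.2 CPM in RBH roots, against 27.8, 42.9 and 27.9 CPM in water and 56.2, 55 and 150.1 CPM at RB 2 h, a ratio of RBH to water of 0.524. AT3G62650, AT5G19340 and AT1G70780, uncharacterized proteins among the 12 most abundant members, had RB 2 h means of 456 ± 102, 160.0 ± 40.3 and 151 ± 44.1 CPM (SD, n = 3 each). Their RBH ratios to water were 1.24, 1.23 and 0.801. AT4G37220, annotated in a family of cold acclimation proteins, and XERO1, a dehydrin, were named after their values were seen. AT4G37220 had 1.33, 1.76 and 1.12 CPM in RBH roots, against 7.75, 14.5 and 12.1 CPM at RB 2 h and 14.4, 14.9 and 12.5 CPM at RB 3 h. XERO1 had 7.33, 7.62 and 10.6 CPM in RBH roots, against 27.1, 31.1 and 26.5 CPM at RB 2 h and 22.8, 21.4 and 23.5 CPM at RB 3 h. For both, every RB 2 h and RB 3 h library was above every RBH library.

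**Figure D3:**
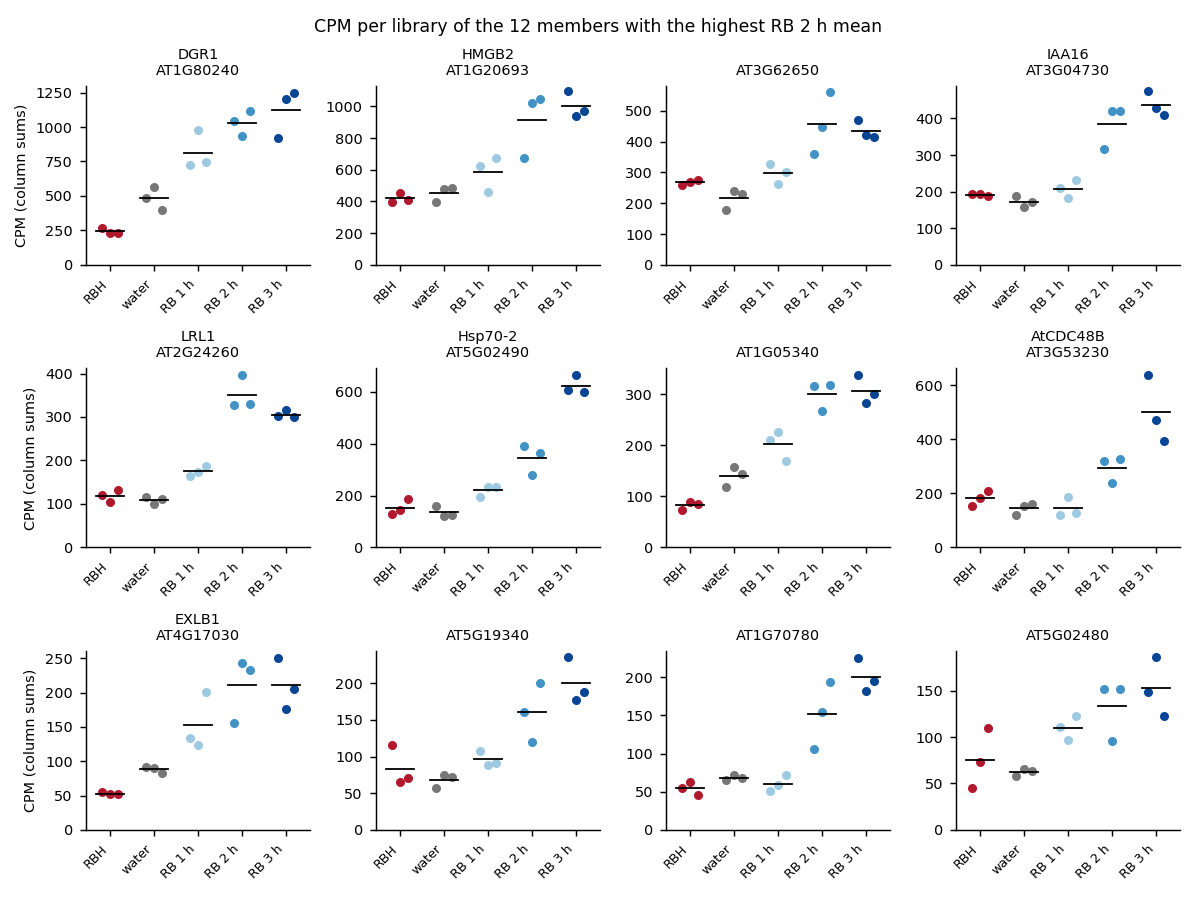
CPM in each library (points) and group mean (lines) of the 12 members with the highest mean at RB 2 h, for RBH, water, RB 1 h, RB 2 h and RB 3 h roots, with 3 libraries a group and a separate vertical scale for each gene. DGR1, AT1G05340, EXLB1 and AT1G70780 are lower in every RBH library than in every water library, while AtCDC48B and AT3G62650 are near the upper limit of the rule at 25% above water.

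Across the 85 members, 39 had an RBH ratio to water under 1 and 12 had one under 0.75. Over the 9891 genes tested, the median of this ratio was 0.993 and its lower quartile 0.725. Such values were thus common among all genes, and nothing is read from the members' counts. The 5 members with the lowest ratio were AT4G09100, DGR1, CP1, AT5G40690 and AT1G05340. Since the rule set an upper limit but no lower limit on this ratio, its spread below 1 is a description of the members and was not tested.

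The time course under the dye differed among the members. At RB 1 h, 37 members had reached at least 50% of their difference between RB 2 h and water, 18 had reached under 25%, and 9 were at or above their RB 2 h mean. The median share reached at RB 1 h was 44.4% for the members and 40.5% for the 758 other genes higher after the dye. Nothing particular to the members is read from these counts. With plain library totals, the 4 members with a mean below water at RB 1 h were Phox4, AT1G70780, ABCB11 and AtCDC48B. None of the 4 passed the test (edgeR adjusted p of 0.372, 0.335, 0.664 and 0.709). Their log2 fold changes of RB 1 h over water were -0.82, -0.37, -0.26 and -0.19. In that fit, which scaled totals by TMM, 76 of the 85 members were above 0. Further members were thus below 0, among them AT5G01720 and ABI2, both at -0.23. Of the 6 members called at RB 1 h under every alternative, LECRKA4.1, NAC041 and AT5G59450 had a higher mean at RB 1 h than at RB 2 h, and AT1G53620, LECRKA4.2 and PRA1.B5 a lower one.

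**Figure D4:**
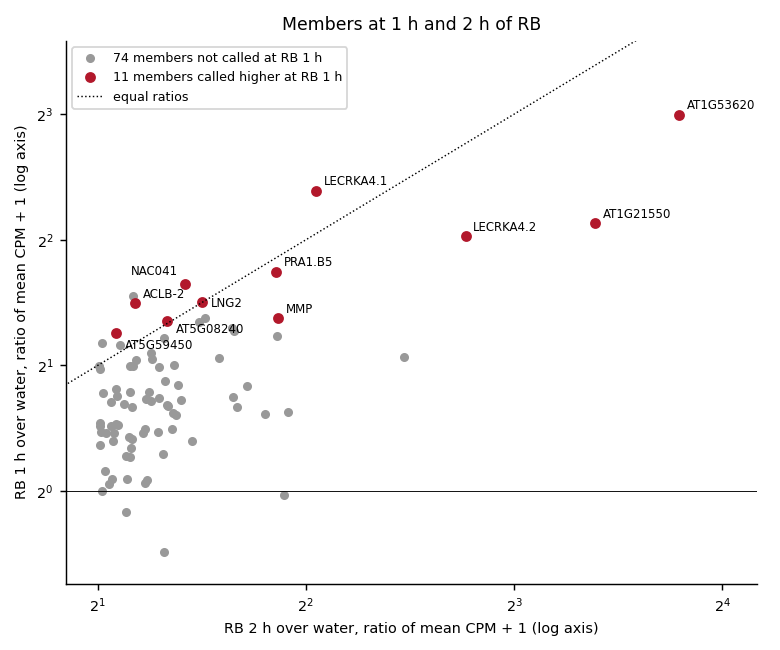
Ratio of mean CPM plus 1 to water at RB 1 h (vertical, log axis) against that at RB 2 h (horizontal, log axis) for the 85 members, each point 1 gene from 3 libraries a group; red points are the 11 called at RB 1 h and the dotted line marks equal ratios. AT1G53620 lies at the upper right, LECRKA4.1 and NAC041 lie above the line, and 4 points lie below a ratio of 1 at RB 1 h.

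Between RB 2 h and RB 3 h, 62 members had a higher mean CPM at RB 3 h. The values of both groups chose the members, through their ratios to water and a minimum at RB 2 h, so the counts and p-values of RB 3 h against RB 2 h are not free of that choice and support nothing. In the fit, 57 members had a positive log2 fold change of RB 3 h over RB 2 h, with a median of 0.07; over all genes the median was -0.03 and 46.1% were positive. By edgeR, 0 members passed in either direction, and 0.0607% of all genes were called higher and 0.162% lower. At an unadjusted p under 0.05, 5 members were higher and 1 lower, against 4.26% of all genes in each direction. DESeq2 called 2 members higher and 0 lower, against 0.836% and 0.684% of the genes to which it gave an adjusted p. Hsp70-2 came nearest, with a log2 fold change of 0.82 (SE 0.19, edgeR adjusted p 0.0616). It was called by DESeq2 (adjusted p 0.00347), without a filter on low counts (edgeR adjusted p 0.0420) and without the 2 libraries that stood apart (edgeR adjusted p 0.0376). CP1, with a log2 fold change of 0.95 (SE 0.25, edgeR adjusted p 0.112), was called by DESeq2 alone (adjusted p 0.0489). In the authors' deposited table Hsp70-2 is the 1 member with an adjusted p under 0.05 in this comparison.

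The membership itself varied with the libraries and the scaling. Leaving out 1 library at a time gave 64 to 108 genes, and 21 of the 85 met the rule in all 12 such runs. Under both TMM and DESeq2 scaling 40 of the 85 remained, and 19 met the rule in all of these runs. Those 19 were ABCB11, AT1G21550, MYC2, AT1G53620, MMP, CLE13, TLP-3, LRL1, ARSK1, NAC041, AT4G09100, EXLB1, CP1, LECRKA4.2, PRA1.B5, Hsp70-2, AT5G02760, AT5G08240 and G18F. LECRKA4.1, AT5G59450, ACLB-2 and LNG2, which passed the test at RB 1 h, and DGR1, the most abundant member, were not among them.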

How the data were processed

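Root RNA of 15 libraries was read by MARS-seq, which counts transcripts near their 3′ end. Per the submitters' processing notes, the authors used bcl2fastq, cutadapt, STAR 2.4.2a, HTSeq and DESeq2; the sources used here do not state the genome build, the strand setting or any collapsing of molecular identifiers. The deposited table holds whole-number counts per gene and library for 14391 genes, and adjusted p-values of the authors' own comparisons; 30 further per-library columns were not used. The members and lists were chosen with earlier results of these data known, and roles were assigned after the members were seen. Genes were kept by filterByExpr, which left 9891, all 85 members among them. Counts were fitted with edgeR 4.0.16 (R 4.3.3, TMM, quasi-likelihood, 1 coefficient per group, 10 residual degrees of freedom, two-sided). Benjamini-Hochberg adjustment ran over all 9891 genes, with a threshold of 0.05. RB 2 h, RB 3 h and RBH over water, and RBH over RB 2 h, are given without a test. RB 1 h against water and RB 3 h against RB 2 h were tested. The rule used the water, RB 2 h and RB 3 h libraries, so neither test is free of the choice of members. Standard errors divide each log2 fold change by the square root of its F statistic. DESeq2 1.42.0 was an alternative. Intervals cover counting error only.

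The genes named are the 12 with the highest RB 2 h mean, those called, those at each threshold, the 5 lowest in RBH over water and those on a list; others are marked where named. Promoters were planned for the 12 most abundant members and are shown instead for 5 members called at RB 1 h; 1 other is not reported here.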

Additional observations from a re-analysis of the deposited data

How the results depend on the processing

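With 85 members by the rule as given, TMM totals gave 43, DESeq2 size factors 41, a dye fold of 1.5 gave 411, a fold of 3 gave 12, an RBH limit of 1 times water gave 39, a limit of 1.5 gave 165, and a minimum of 20 CPM gave 55. Adding 0.5 or 3 in place of 1 gave 88 or 71, a minimum of 5 CPM gave 117, and leaving out 1 library at a time gave 64 to 108. Of the 42 members lost with TMM, 32 missed only a dye threshold, 4 only the RBH limit and 6 both; of the 44 lost with DESeq2 size factors these were 35, 3 and 6. The cause of the other differences was not tested. RB 2 h replicate c gave the lowest number when left out, and RB 2 h replicate a the highest.

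For RB 1 h against water, 11 members were called, and the count was 11 under RLE factors, DESeq2, no filter on low counts and the replicate block, and 16 with the 2 groups alone. Leaving out 1 library gave 7 to 14 calls, the 7 without water replicate c, and without the 2 libraries that stood apart it was 16, an alternative chosen after seeing the data. For RB 3 h against RB 2 h, 0 members were called by edgeR and with the replicate block, 0 in every run without 1 library (0 to 0), 2 by DESeq2, 1 without the filter and 1 without the 2 libraries that stood apart. The labels do not say that replicate letters pair the samples. The deviations of 30 same-letter pairs correlated at -0.30 to 0.27, 4 of them over 0.1. For 60 different-letter pairs this was -0.39 to 0.38, with 19 over 0.1. These are deviations from means of 3 libraries, so they cannot exclude a shared batch. No result changed direction. At these depths a member with few counts in water, such as AT1G21550 or AT1G53620, has a wide ratio interval.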
